A study of Mus musculus with 3 samples.

Results

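The 42 genes described here are cell cycle genes, all of which were found in the gene lists of the 3 libraries, among 21446 genes that the libraries shared by identifier. They comprised 2 D-type cyclins, 3 cyclins of the G1/S transition and S phase, 11 genes of DNA replication and its licensing, 21 mitotic genes, 3 chromatin and tubulin genes expressed beyond cycling cells, and 2 inhibitors of cyclin-dependent kinases (CDKs). The genes were listed by name and not by their level. They were counted in single cells sorted as mCherry+ from the dissociated mandibular molars of Pthrp-mCherry knock-in mice at P15, P25 and 8 weeks. This reporter marks cells that express the gene of parathyroid hormone-related protein, and every library carried it, so that no reporter-negative cell served as a control. Animals were pooled, each age was 1 library, and no test was therefore made between ages.

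A cell enters the cycle when D-type cyclins switch on CDK4 and CDK6, which release E2F factors from the retinoblastoma protein. E2F factors then raise cyclin E and the genes of replication, cyclin A and CDK1 follow, and the mitotic kinases, kinesins and checkpoint proteins peak at the division itself. The inhibitors p21 (Cdkn1a) and p57 (Cdkn1c) hold CDKs back, and are often high in cells that have left the cycle. In the forming root, cementoblasts and other cells of the dental follicle lineage lie beside the epithelial root sheath and its later remnants.

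The P15, P25 and 8 weeks libraries held 12926, 8971 and 5192 cells, with a median of 14218.5, 15000 and 8695 unique molecular identifiers (UMIs) per cell. Because a shallow cell shows fewer genes, each cell was thinned at random to 3000 UMIs before shares of cells were taken, which left out 1762, 778 and 959 cells. Between 13 and 26 cell barcodes were shared by any pair of libraries, and 0 by all of them. Lineages were gated by 1 gene each from the full counts. A cell was positive with at least 2 UMIs and at least the mean level of that gene over the libraries, in CPM (counts scaled to the total of the cell or sum). Cells positive for none were called ungated, and these made up 55.6%, 53.5% and 59.7% of the 3 libraries.

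The gates were checked against markers that were not used to draw them. All 6 epithelial markers (Krt5, Epcam, Trp63, Krt17, Perp and Sfn) were highest in the Krt14 gate at each age, as were all 5 leukocyte markers in the Ptprc gate and all 5 endothelial markers in the Pecam1 gate. All 4 markers listed for periapical cells (Nts, Alx1, Tnn and Csrp2) were highest in the Hand2 gate. They summed to 3672, 5517 and 6203 CPM there in age order, and to 795, 3177 and 4933 CPM in the Pappa2 gate, the next highest. The Pappa2 gate may thus hold other cells at the later ages than at P15, which was not tested. The Ifitm5 gate led in 5, 5 and 4 of 5 markers of mineralising cells, such as Bglap, at P15, P25 and 8 weeks. At 8 weeks Phex was higher in another gate. The Ibsp gate led in 3, 3 and 2 of 4 of its markers, since Dmp1 at each age and Ank at 8 weeks were higher in another gate. The Rgs5 gate led in 4, 2 and 2 of 6 mural cell markers and the Pappa2 gate in 5, 2 and 2 of 5 of its markers, so the last 2 are named by their gate gene alone. At 8 weeks the Pappa2, Ptprc and Pecam1 gates held 30, 19 and 6 cells.

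Promoters of 5 members are printed to show the sequence that most of the mitotic genes shared and that the rule for choosing them did not use. Among 32 members with an entry in the RefSeq promoter table (GRCm38.p6), from 250 bases before the start to 50 after it, 17 held the letters TTTGAA of the cell cycle homology region (CHR). This element is bound by the DREAM and MMB complexes in textbook accounts of late cell cycle genes. The same letters stood in 17.9% of 32851 promoters. Of the 19 mitotic members with an entry 14 held them, against 1 of 9 replication members. The CCAAT box (CCAAT) stood in 27 of 32 members, against 37.4% of all promoters, and both motifs stood in 17 of 32 against 6.95%. An E2F motif (TTTCCCGC or TTTGGCGC) stood in Mcm3, Mcm5, Mcm6 and Mcm7, in 0 of 19 mitotic members and in 1.56% of all promoters. Both strands were searched, no motif contains another, and a match is a description of these letters only. A member was counted once, with a motif if any of its entries held it, while the shares of all promoters are per entry. Each line below gives 150 bases before the start to 30 after it, 5′ to 3′ on the minus strand. In Cdk1 (chr10:69352883-69353062), Ccnb2 (chr9:70421525-70421704) and Cdc20 (chr4:118437314-118437493) the capitals mark CHR and CCAAT letters, the latter on the opposite strand (ATTGG) in Cdk1. In Mcm3 (chr1:20820283-20820462) and Mcm6 (chr1:128359676-128359855) they mark the E2F letters, which lie on the opposite strand in Mcm3.
Cdk1: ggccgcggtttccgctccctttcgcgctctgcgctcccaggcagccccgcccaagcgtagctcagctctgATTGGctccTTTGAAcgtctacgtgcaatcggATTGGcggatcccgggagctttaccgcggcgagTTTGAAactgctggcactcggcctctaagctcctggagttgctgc
Ccnb2: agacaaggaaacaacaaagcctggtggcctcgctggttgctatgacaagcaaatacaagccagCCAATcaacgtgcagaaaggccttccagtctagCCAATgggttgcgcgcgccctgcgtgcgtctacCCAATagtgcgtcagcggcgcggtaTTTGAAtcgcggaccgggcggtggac
Cdc20: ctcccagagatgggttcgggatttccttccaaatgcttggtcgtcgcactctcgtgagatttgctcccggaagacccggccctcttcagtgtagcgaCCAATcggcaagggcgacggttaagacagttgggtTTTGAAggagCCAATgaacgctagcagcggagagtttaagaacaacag
Mcm3: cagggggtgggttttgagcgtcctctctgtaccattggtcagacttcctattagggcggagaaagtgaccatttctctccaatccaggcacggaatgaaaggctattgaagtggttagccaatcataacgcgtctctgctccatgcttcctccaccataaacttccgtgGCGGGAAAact
Mcm6: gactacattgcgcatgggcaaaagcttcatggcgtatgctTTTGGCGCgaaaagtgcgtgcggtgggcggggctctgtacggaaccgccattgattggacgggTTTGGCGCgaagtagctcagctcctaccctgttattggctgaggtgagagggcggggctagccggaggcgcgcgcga

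The 21 mitotic genes were used together to find cells in or near division. Cells with a UMI of at least 3 of them after thinning made up 7.43% of cells at P15 (exact 95% interval 6.95 to 7.94, n = 11164 cells). At P25 they made up 7.20% (6.65 to 7.78, n = 8193) and at 8 weeks 1.46% (1.12 to 1.87, n = 4233). The P15 share was 5.08 times that at 8 weeks (interval 3.92 to 6.68), while P15 and P25 overlapped in their intervals. These intervals cover counting error only, and not the variation between animals. The threshold cuts a range and not a cell type, since at P15 9.93% of cells had at least 2 of the genes and 5.34% had at least 5. Without thinning the shares were 13.0%, 12.3% and 2.08%. Without the 6% of cells with the most UMIs in each library the ratio of P15 to 8 weeks was 9.21.

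In each of the 5 mesenchymal gates the share at 8 weeks was below that at P15. The ratios of the gates had intervals that overlapped, and the gates were not tested against each other. These gates held 94 of the 830 cells with mitotic transcripts at P15. In the Hand2 gate the share went from 8.24% at P15 (interval 5.17 to 12.3) through 4.60% to 2.60% (1.52 to 4.14). The Ibsp gate, which holds cells with bone sialoprotein, stood at 1.45%, 1.35% and 0.478%, and the Ifitm5 gate, drawn by a gene of mineralising osteoblasts, at 2.17%, 2.79% and 0.862%. The Rgs5 gate stood at 3.61%, 1.96% and 0.733%. The Pappa2 gate stood at 4.0% and 3.51%, and at 8 weeks 0 of 29 cells were positive, where 3 positive cells would make 10.3%. The ratios of P15 to 8 weeks were 3.16 in the Hand2 gate (interval 1.59 to 6.39) and 4.93 in the Rgs5 gate (1.18 to 43.8). In the Ibsp gate the ratio was 3.03 (0.845 to 16.4) and in the Ifitm5 gate 2.52 (0.549 to 23.4), so that neither fall was larger than counting error. Over the 5 mesenchymal gates together the shares were 3.16%, 2.82% and 1.32%, a ratio of 2.39 (1.51 to 3.91). This ratio lay below that of each of the 4 gates that gave one, and the make-up of the 5 gates changed with age, with the Hand2 gate at 258 of 3030 cells at P15 and 662 of 1933 at 8 weeks. With a gate minimum of 5 UMIs the Hand2 ratio was 1.62 (0.625 to 4.34), a value below counting error.

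The Krt14 gate went the other way. Cells with mitotic transcripts made up 12.4% of this epithelial gate at P15 (132 of 1063 cells). This share was 42.4% at P25 (309 of 728) and 31.6% at 8 weeks (30 of 95), so that both later intervals lay above that of P15. The P15 share was 0.393 times that at 8 weeks (interval 0.263 to 0.606). In age order, thinning left out 549 of 1612, 207 of 935 and 35 of 130 cells of the gate, and without thinning the shares were 18.7%, 53.6% and 36.9%. Without the cells with the most UMIs the ratio was 0.484, with an interval of 0.252 to 1.04 that reached above 1. The summed level of the 6 epithelial markers in this gate was 7796, 13316 and 11783 CPM in age order, and the median cell held 9862.5, 25543 and 11425 UMIs before thinning. The part of these differences in the shares was not tested. Cells of the Krt14 gate made up 15.9%, 52.4% and 48.4% of all cells with mitotic transcripts at the 3 ages.

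Among the sets with a ratio, the ungated cells had the highest. Their share went from 8.16% through 3.88% to 0.348% (8 of 2301 cells), a ratio of 23.5 (interval 11.8 to 54.6). With a gate minimum of 5 UMIs, which moves more cells into this class, the ratio was 15.1. Ungated cells with at least the mean level of Col1a2, a collagen gene of mesenchymal cells, stood at 5.81% and 4.09%. At 8 weeks 0 of 548 such cells were positive, where 3 positive cells would make 0.547%. The remaining ungated cells stood at 8.84%, 3.74% and 0.456%. Other cell types moved with this fall. The haemoglobin gene Hbb-bs summed to 4786, 3197 and 664 CPM in ungated cells in age order, and the neutrophil gene S100a8 to 270, 11.9 and 5.38 CPM. In the ungated cells with high Col1a2 these stood at 388, 18.9 and 107 CPM for Hbb-bs and at 56.1, 2.75 and 4.28 CPM for S100a8. Their part in the fall was not tested. Ungated cells held 60.1%, 28.1% and 12.9% of the cells with mitotic transcripts.

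Leukocytes and endothelial cells were described at the ages that held them. In the Ptprc gate the share was 9.86% at P15 (69 of 700 cells) and 7.81% at P25. At 8 weeks 0 of 16 cells were positive, where 3 positive cells would make 18.8%. Within this gate at P15, cells with Cd79a of the B lineage reached 24.0% (12 of 50 cells, interval 13.1 to 38.2). Cells with Csf1r of the macrophage lineage stood at 6.93% and cells with the neutrophil receptor Cxcr2 at 5.83%. The 19 positive cells with Cxcr2 had a median of 22794 UMIs and 4167 genes before thinning. The 247 with no mitotic gene had 7275 and 1686, so the positive cells need not be neutrophils, which was not tested. In the Pecam1 gate 8.07% of 161 cells at P15 were positive, and this gate held 7 cells at P25. No doublet caller was run. Cells positive in more than 1 compartment were set aside, and 15.8% of them at P15 and 22.2% at P25 were positive.

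Free RNA can give UMIs in cells that do not express a gene. No gate is known to lack these genes. As low shares for reference, the Ibsp gate stood at 1.45% at P15, with a median of 14526 UMIs, and the ungated cells at 0.348% at 8 weeks, with a median of 7455.5 UMIs. Shares differed between gates of 1 library beyond counting error at equal thinned depth, as between the Ibsp gate with 1.45% and the Krt14 gate with 12.4% at P15. The make-up of the libraries also differed with age, and its part in the shares was not tested. With the gate make-up of P15 applied to each age, the share over all cells came to 7.62% for P25 and to 3.37% for 8 weeks. The value for 8 weeks rests in part on small gates, such as 29 Pappa2 and 16 Ptprc gate cells after thinning, and has no interval.

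**Figure D1:**
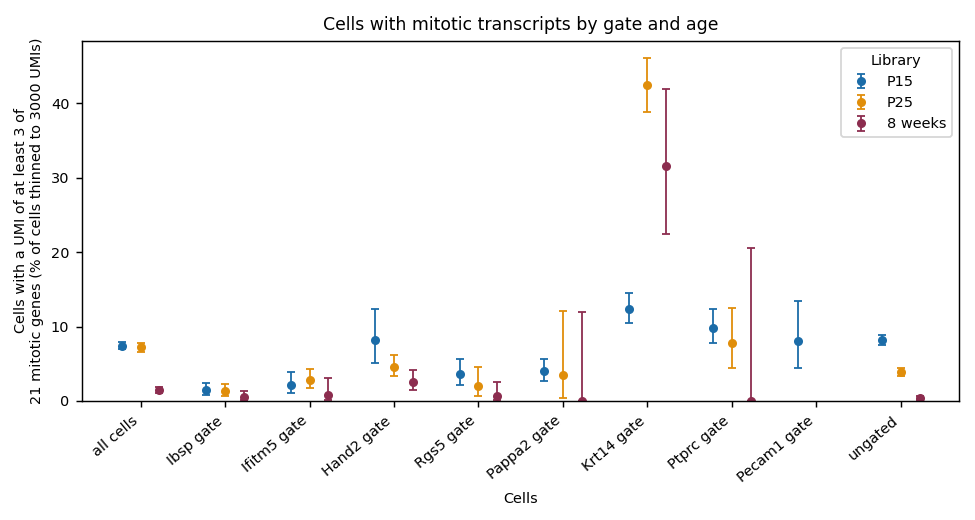
Share of cells with a UMI of at least 3 of the 21 mitotic genes, as a percentage of the cells thinned to 3000 UMIs, for all cells and each gate, with 1 point per library and bars for the exact 95% interval. The Krt14 gate rises from 12.4% at P15 to 42.4% at P25, while the ungated cells go from 8.16% to 0.348% at 8 weeks.

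Single genes are given in the same way. Mki67, which encodes the proliferation antigen Ki-67, was found after thinning in 6.27%, 5.18% and 1.75% of all cells in age order. In the Krt14 gate it was found in 10.7%, 30.9% and 33.7% of cells. In the Hand2 gate the shares were 5.88%, 3.72% and 2.60%, and in the Ibsp gate 1.03%, 0.519% and 0.797%. In the Ptprc gate it was found in 9.86% at P15 and 8.33% at P25. The level of Mki67 in the summed cells of the Krt14 gate was 77.8, 230 and 321 CPM, so that both scales placed P15 lowest there. In the Hand2 gate the summed level was 46.9, 48.0 and 70.8 CPM, against the order of the shares, and no order is read from it.

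Top2a, the topoisomerase that untangles chromosomes, was found in 6.04%, 7.54% and 3.0% of all cells at P15, P25 and 8 weeks. Its shares in the Krt14 gate were 4.99%, 30.2% and 20%, and in the Hand2 gate 7.84%, 7.01% and 5.51%. Cdk1, the kinase that starts mitosis, was found in 3.92%, 4.48% and 0.921% of all cells. In the Krt14 gate the Cdk1 shares were 3.95%, 20.2% and 10.5%, and in the ungated cells 4.32%, 2.90% and 0.478%. Ccnb1, its cyclin partner, was found in 3.39%, 18.4% and 6.32% of Krt14 gate cells, and in 2.29%, 3.50% and 0.520% of all cells. For all 4 genes the highest share of a gate at P25 and at 8 weeks was that of the Krt14 gate.

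The median over the 21 mitotic genes of the share in the Krt14 gate was 4.99%, 18.4% and 10.5% in age order. In the Ibsp gate the median was 0.931%, 0.727% and 0.478%, and in the Hand2 gate 3.92%, 3.07% and 1.84%. At P15 the highest share among 8 gates was in the Krt14 gate for 12 of 42 members, in the Hand2 gate for 10, in the Pecam1 gate for 9, in the Ptprc gate for 8 and in other gates for 3. At P25 the Krt14 gate was highest for 36 of 42 members and at 8 weeks for 39, where the exceptions were Ccnd2 and Cdkn1c in the Rgs5 gate and Cdkn1a in the Ifitm5 gate.

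**Figure D2:**
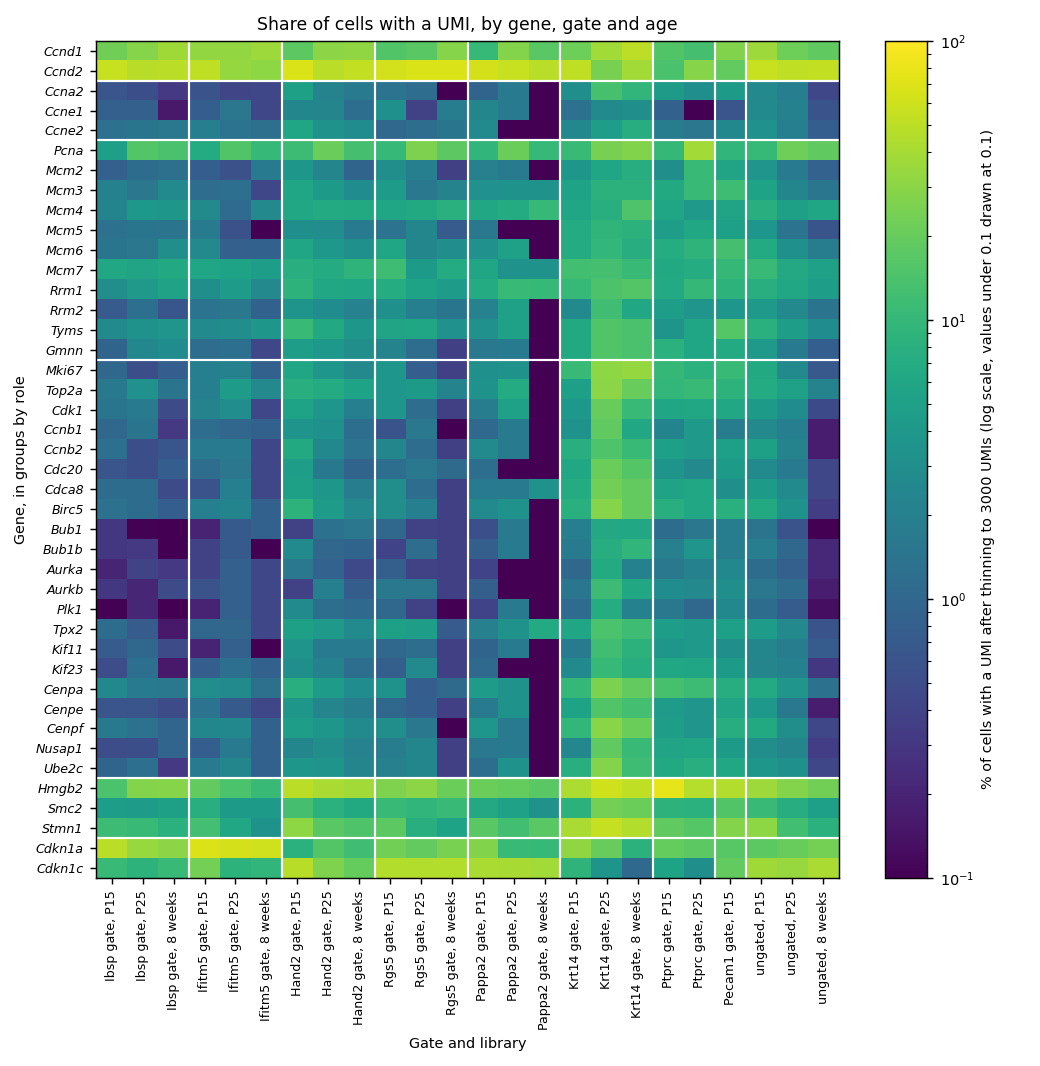
Percentage of cells with a UMI of each of the 42 genes after thinning to 3000 UMIs, on a log colour scale, with genes in rows by role and gates and libraries in columns. The mitotic genes are brightest in the Krt14 gate at P25 and 8 weeks, with Mki67 at 30.9% and 33.7%.

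Genes of DNA replication differed among themselves. Pcna, the sliding clamp of the replication fork, was found in 9.57%, 21.1% and 16.5% of all cells in age order, and its summed level was 38.6, 96.7 and 65.7 CPM. It was higher at P25 than at P15 in every gate with at least 20 cells at both ages, as in the Ptprc gate with 48.6 and 230 CPM and the Ibsp gate with 20.5 and 68.9 CPM. The P25 library was also the one whose gene list was longer, with 32293 features against 22056, and the part of this in the Pcna level was not tested. Pcna is also used in DNA repair outside the cycle.

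The 6 Mcm genes encode the helicase loaded at replication origins. Their shares over all cells at P15 ran from 3.18% for Mcm2 to 9.52% for Mcm7, and at 8 weeks from 1.06% for Mcm5 to 6.21% for Mcm7. Mcm5 was found in 6.96%, 9.20% and 8.42% of Krt14 gate cells, and in 3.74%, 1.38% and 0.608% of ungated cells. Mcm3 stood at 5.46%, 8.52% and 8.42% in the Krt14 gate, and Mcm6 at 7.06%, 9.62% and 7.37%. Mcm4 stood at 6.38%, 5.13% and 5.88% over all cells and Mcm7 at 9.52%, 6.88% and 6.21%. Mcm2 was found in 3.92% of Hand2 gate cells at P15, with 2.30% and 0.919% at the later ages.

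The D-type cyclins and the inhibitors had patterns of their own. Ccnd1 summed to 111, 138 and 197 CPM in the Ibsp gate and to 132, 186 and 364 CPM in the Krt14 gate at P15, P25 and 8 weeks. In the Ifitm5 gate it stood at 179, 151 and 223 CPM, and in the ungated cells at 260, 117 and 130 CPM. Ccnd2 was highest in the Rgs5 gate at P25 and 8 weeks, with 432, 505 and 454 CPM, against 334, 116 and 182 CPM in the Krt14 gate and 94.1 and 173 CPM in the Ptprc gate at P15 and P25. Both were found in many more cells than the mitotic genes, with Ccnd2 in 53.1% and Ccnd1 in 28.8% of all cells at P15.

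Cdkn1a was highest in the Ifitm5 gate at each age, with 822, 457 and 415 CPM, and in 68.8%, 64.0% and 60.8% of its cells. The Ibsp gate followed with 295, 198 and 182 CPM, and the Hand2 gate held 44.4, 80.2 and 60.7 CPM. Cdkn1c stood at 369, 304 and 308 CPM in the Rgs5 gate and at 249, 223 and 247 CPM in the Pappa2 gate, so that neither changed by a fold of 2 with age. In the Hand2 gate it went from 341 CPM at P15 to 137 and 111 CPM, and in the Krt14 gate 40.4, 17.4 and 6.97 CPM.

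**Figure D3:**
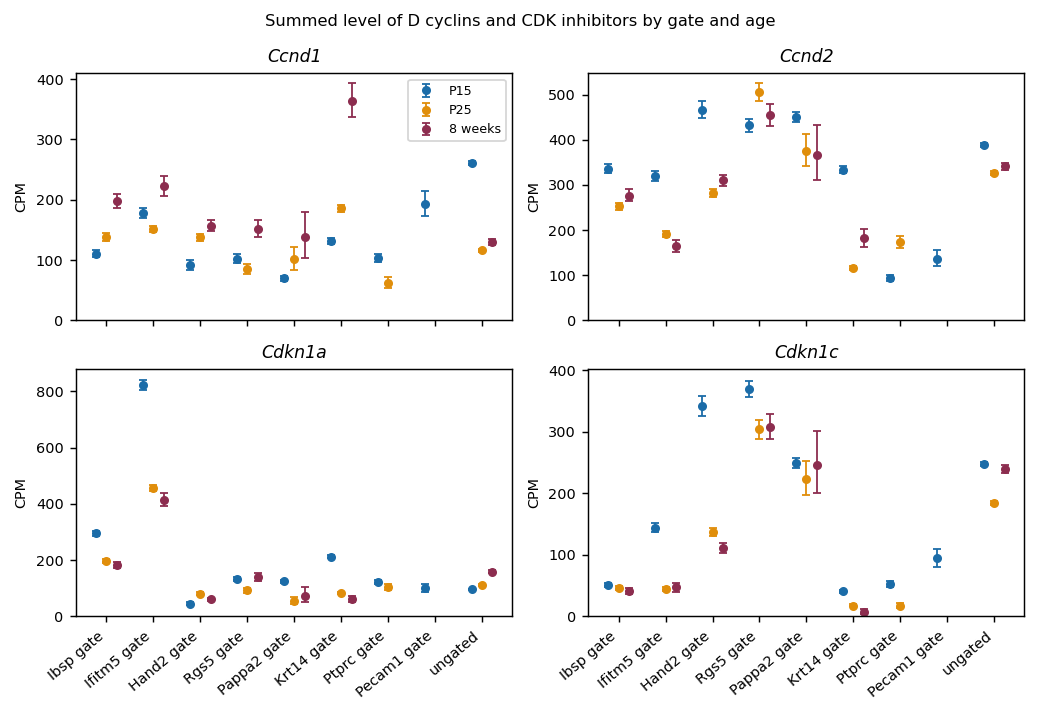
Summed level in CPM of Ccnd1, Ccnd2, Cdkn1a and Cdkn1c in each gate, with 1 point per library and bars for the exact 95% Poisson interval of the summed counts. Cdkn1a is highest in the Ifitm5 gate at each age, at 822, 457 and 415 CPM.

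Within cells that carried mitotic transcripts, the members of the other roles were compared after thinning, as a description. At P15 Ccna2, the cyclin of S phase and G2, was found in 27.2% of 830 cells with mitotic transcripts and in 0.325% of 8624 cells with none. Stmn1, which destabilises microtubules, was found in 90.2% against 19.5%, and Hmgb2, a chromatin protein, in 88.9% against 30.0%. Pcna was found in 21.6% against 8.08%. Ccnd1 was found in 28.3% and 28.7% of these cells, which overlap in their intervals. Ccnd2 was found in fewer cells with mitotic transcripts, in 33.4% against 55.5% at P15, in 16.8% against 49.0% at P25, and at 8 weeks in 14.5% against 52.0%. In the mesenchymal gates the Ccnd2 shares were 30.9% against 59.8%, 15.9% against 46.9% and 8.33% against 51.6%. In the Krt14 gate at P15 they were 52.3% and 49.6%, which overlap, and at P25 18.4% against 29.8%. Cdkn1a in the mesenchymal gates at P15 was found in 18.1% against 40.1%, and at 8 weeks in 41.7% of 24 cells against 26.3%, which overlap. The gates were not mixed alike in these cells. At P15 the Ibsp and Ifitm5 gates held 14 and 11 of 94 mesenchymal cells with mitotic transcripts, and 867 and 451 of 2565 with none. At 8 weeks the Hand2 gate held 17 of the 24. The part of this make-up in the Cdkn1a and Ccnd2 shares was not tested. Cells with mitotic transcripts had more UMIs before thinning, with a median of 19516 against 15154.5 at P15, and of 32298.5 against 15513.5 and 18610 against 9719 at the later ages.

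Summed levels were then compared, in which fewer cells with a transcript and less RNA per cell cannot be told apart. At a fold of at least 2 in CPM, 27 of 42 members were higher at P15, 17 of them mitotic, where 15.4% of 15982 genes passed in that direction. None of the 42 was higher at 8 weeks by that fold, where 5.40% of genes passed. The median ratio was 2.37 for the members and 1.05 for all genes. Ccnb2, the second B-type cyclin, stood at 27.1, 26.5 and 6.54 CPM at P15, P25 and 8 weeks, a ratio of 4.14 (interval 3.69 to 4.67). Intervals of such ratios take each UMI as independent. UMIs of these genes cluster in few cells, so these intervals are too narrow for a statement about cells. Mcm5 stood at 17.1, 13.7 and 4.72 CPM with a ratio of 3.62. Cenpa, the centromere histone, and Birc5, which encodes survivin, had ratios of 3.47 and 3.37. Mki67 with 1.89 and Top2a with 1.76 did not reach the fold in these sums. Ccnd1 with 1.19, Ccnd2 with 1.16, Cdkn1a with 1.08 and Cdkn1c with 1.14 stood near 1, and Pcna stood at 0.588. When the CPM of each cell was averaged instead, all 21 mitotic genes reached the fold, Mki67 and Top2a included. Their median ratio was 3.74 on that scale and 2.69 by sums. No share over all genes is given for the averaged scale.

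The sum over the 5 mesenchymal gates together did not hold this fall, while the Rgs5 gate on its own did, with few cells. After thinning, 18 cells of the Rgs5 gate carried mitotic transcripts at P15 and 2 at 8 weeks. In the Pappa2 gate all members past the fold rested on 3 or fewer UMIs at 8 weeks. Over the 5 gates together 0 of 42 members were higher at P15 by a fold of 2, where 11.1% of genes passed. Nusap1 and Pcna were higher at 8 weeks, where 4.19% passed. The median ratio of the mitotic genes was 1.04, with 12 of 21 above 1. This sum carries the same change of make-up of the gates. A sum weights cells by their depth. With the CPM of each cell averaged instead, the median was 1.62, with 16 of 21 above 1, and the 2 scales thus placed the mesenchymal fall differently. In the ungated cells 37 of 42 members were higher at P15 (13.7% of genes) and 0 at 8 weeks (7.74%), with a median ratio of 8.07. The kinetochore motor Cenpe fell there from 24.1 to 0.799 CPM, a ratio of 30.1 (interval 19.2 to 50.1), and Stmn1 from 314 to 36.0 CPM, a ratio of 8.72.

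By single gate, 31 members were higher at P15 in the Rgs5 gate (12.9% of genes), with Mki67 at 40.1, 19.0 and 7.35 CPM, and Pcna alone was higher at 8 weeks (6.07%). Of these 31, 5 rested on 3 or fewer UMIs at 8 weeks, and all 31 passed with those set to 3 UMIs. This floor counts UMIs and not cells. Most of the 31 are mitotic genes found together in the same few cells, so they are not separate results. In the Pappa2 gate 27 members were higher at P15 (17.7%) and 0 at 8 weeks (13.4%). All 27 rested on 3 or fewer UMIs in its 30 cells at 8 weeks, 16 of them on 0, and 8 passed with these set to 3 UMIs. In the Hand2 gate 8 were higher at P15 (8.57%), among them Ccnb2, Mcm5 and Cdkn1c with ratios of 2.54, 2.66 and 3.08, and Nusap1 alone was higher at 8 weeks (6.75%). In the Ifitm5 gate 6 were higher at P15 (11.2%), which were Ccne1, Mcm3, Mcm5, Mcm6, Gmnn and Cdkn1c, and Kif11 was higher at 8 weeks (4.31%). In the Ibsp gate Cdk1, Ccnb1, Plk1 and Cenpe were higher at P15 (7.93%), and Nusap1, Pcna and Bub1 at 8 weeks (4.98%). Plk1 rested on 3 or fewer UMIs at 8 weeks and did not pass with these set to 3. In the Krt14 gate the inhibitors Cdkn1a and Cdkn1c were the only members higher at P15 (22.0%). There 25 members were higher at 8 weeks (6.40%), with Top2a at 47.3, 291 and 246 CPM and a ratio of 0.192 (interval 0.172 to 0.215). This interval counts UMIs and not cells, and 30 thinned cells of the gate carried mitotic transcripts at 8 weeks. Cdkn1c in this gate rested on 13 UMIs at 8 weeks.

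**Figure D4:**
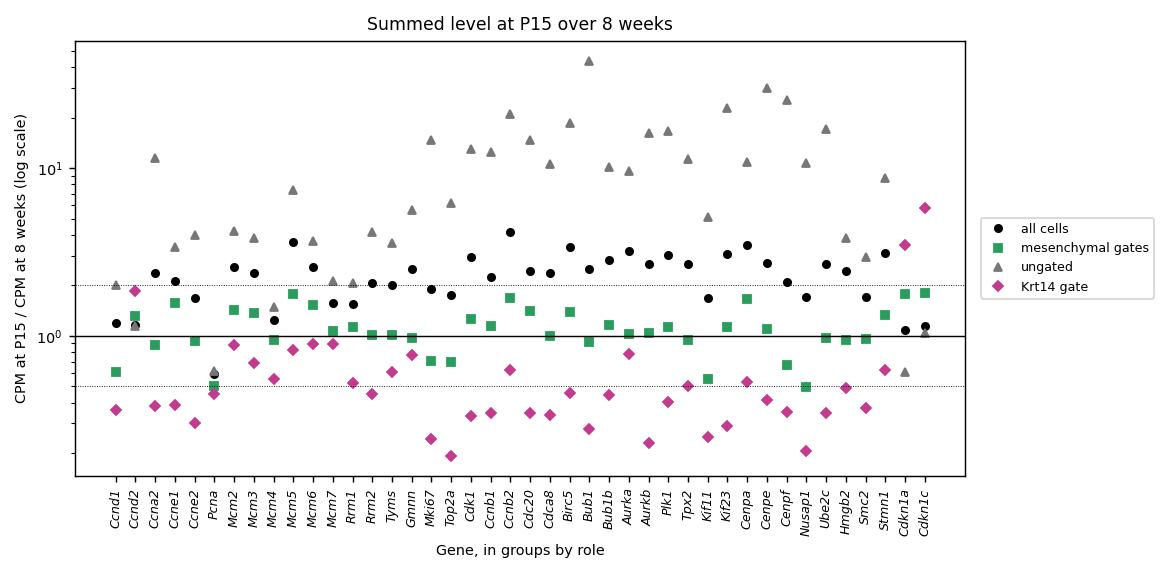
Ratio of the summed CPM at P15 to that at 8 weeks for each gene, on a log axis, for all cells, the mesenchymal gates together, the ungated cells and the Krt14 gate, with dotted lines at a fold of 2 in each direction. Members of the ungated cells lie mostly above a fold of 2 (37 of 42), and those of the Krt14 gate mostly below 1, with Top2a at 0.192.

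Differences between gates were tested over the 3 libraries, with the library as a block and edgeR's quasi-likelihood test on UMIs summed per gate and library. All genes tested entered 1 fit, and adjusted p-values are Benjamini-Hochberg values over all of them. The gate genes stayed in the fit and the adjustment, but were left out of the counts. Shares of genes called are over the other 14639. With this block the spread is that of the differences between gates over 3 ages, not that between animals of 1 age. Values are log2 fold changes with their standard error. Comparisons with the mesenchymal gates share those gates, as do the comparisons with the Hand2 and Pappa2 gates.

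The Krt14 gate was higher than the 5 mesenchymal gates in 39 of 42 members, where 30.7% of genes were called higher. All 21 mitotic genes, all 11 replication genes and all 3 chromatin and tubulin genes were among them. Cdc20, the activator of the anaphase-promoting complex, stood at 32.8, 151 and 94.4 CPM in the Krt14 gate at the 3 ages and at 8.11, 10.4 and 5.80 CPM in the mesenchymal gates together. Its log2 fold change was 3.72 ± 0.32 (edgeR adjusted p = 2.3e-07). Ube2c, its ubiquitin-conjugating partner, followed with 3.35 ± 0.41, Mki67 with 3.33 ± 0.37, and Cdca8 and Cenpe, of the chromosomal passenger complex and the kinetochore, with 3.11 ± 0.33 and 3.05 ± 0.38. Cdkn1c was lower by a log2 fold change of -2.66 ± 0.35 (edgeR adjusted p = 1.43e-05), as was Ccnd2 with -0.66 ± 0.21 (edgeR adjusted p = 0.0131), where 29.2% of genes were called lower. Cdkn1a was not called, with -0.39. Ccnd2 was no longer called without the P25 library or without the 8 weeks library, which left 1 member lower. The median log2 fold change of the members was 2.30, against -0.01 over all genes. Of 89 other cell cycle genes 73 were called higher, led by Kif2c, Cdkn3 and Ect2, and 2 lower, Ccnd3 and the pocket protein gene Rbl2.

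The Ptprc gate, with sums at P15 and P25 alone, was higher than the mesenchymal gates in 35 members, where 29.2% of genes were called higher. Mki67 stood at 153 CPM at both ages in the Ptprc gate and at 23 and 25.2 CPM in the mesenchymal gates, a log2 fold change of 2.89 ± 0.43 (edgeR adjusted p = 5.38e-05). Hmgb2 followed with 2.88 ± 0.32, the spindle motor Kif11 with 2.57 ± 0.40, the spindle protein gene Nusap1 with 2.52 ± 0.46 and the mitotic kinase Plk1 with 2.50 ± 0.43. Cdkn1c with -2.19 ± 0.41 (edgeR adjusted p = 0.00039) and Ccnd2 with -1.37 ± 0.27 (edgeR adjusted p = 0.000542) were lower, where 26.6% of genes were called lower. Without the P25 library 1 member was called lower, Ccnd2, and 10.5% of genes. The median was 1.85 for the members and -0.06 for all genes. Of the 89 other genes 62 were higher, led by E2f2, E2f8 and Ccnf, and Cdk4 and Wee1 were lower.

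The Ibsp and Ifitm5 gates were lower than the Hand2 and Pappa2 gates in 19 members, where 6.74% of genes were called lower. Mki67 stood at 8.26, 5.86 and 9.83 CPM in the Ibsp gate and at 12.1, 21.9 and 14.2 CPM in the Ifitm5 gate, against 46.9, 48.0 and 70.8 CPM in the Hand2 gate and 28.0, 40 and 2.52 CPM in the Pappa2 gate. The Pappa2 value at 8 weeks came from 30 cells and was 1 UMI, and it alone lay below the Ibsp and Ifitm5 gates. The log2 fold change was -1.61 ± 0.43 (edgeR adjusted p = 0.0228). Cdkn1c was lower by -1.68 ± 0.27 (edgeR adjusted p = 0.000842), the spindle factor gene Tpx2 by -1.50 ± 0.33, the checkpoint kinase gene Bub1 by -1.49 ± 0.40 and Ccna2 by -1.48 ± 0.36. The 19 comprised 7 of 11 replication genes, 7 of 21 mitotic genes, all 3 chromatin and tubulin genes, Ccna2 and Cdkn1c. Called or not, 24 of 42 members and 7 of 21 mitotic genes kept the same direction in all 3 libraries. At P15 the median cell held 14526 and 18295 UMIs in the Ibsp and Ifitm5 gates. It held 18178 and 19313 in the Hand2 and Pappa2 gates, and the part of this depth was not tested. Cdkn1a was higher, by 2.41 ± 0.26 (edgeR adjusted p = 4.02e-05), and so was Ccnd1, by 0.71 ± 0.18 (edgeR adjusted p = 0.0183), where 6.83% of genes were called higher. In each library Cdkn1a was higher in the Ibsp and Ifitm5 gates than in both others. The count of lower members depended on the libraries and gates. Without the P25 library 0 of 42 were called and 0.811% of genes, and with cells positive for exactly 1 gate gene 3 were called. Without the 8 weeks library Cdkn1a alone was called higher. Of the 89 other genes 31 were lower, led by E2f7, Uhrf1 and Cdkn2b, and Rb1, which encodes the retinoblastoma protein, was higher by 1.23 ± 0.16.

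Of the gates with mineralisation genes, the Ifitm5 gate was higher than the Ibsp gate in 4 members, where 3.10% of genes were called. Ube2c stood at 2.53 ± 0.66 (edgeR adjusted p = 0.0393), Cenpe at 2.53 ± 0.63, Plk1 at 2.38 ± 0.65 and Cdkn1a at 1.48 ± 0.34 (edgeR adjusted p = 0.0227). After thinning, few cells of these gates carried mitotic transcripts, with 11, 20 and 2 in the Ifitm5 gate at P15, P25 and 8 weeks. The Ibsp gate held 14, 13 and 3 such cells. The calls between these gates did not hold in every setting. Without the library block, and without the 6% of cells with the most UMIs, 0 members were called higher, and with a gate minimum of 5 UMIs 1 was. Neither edgeR nor DESeq2 called any of the 42 lower, where edgeR called 2.17% of genes, and 17 members had an unadjusted p under 0.05. All 21 mitotic genes had a higher summed level in the Ifitm5 gate in all 3 libraries. They are found together in the same few cells and are not 21 separate results. After thinning, the median of their shares was 1.18%, 1.54% and 0.431% in the Ifitm5 gate in age order. In the Ibsp gate it was 0.931%, 0.727% and 0.478%, so that the order at 8 weeks was the other way. The median UMI count was also higher in this gate, with 18295, 24127 and 12873.5 against 14526, 12604 and 8581, and its part in the difference was not tested. The calls moved with the libraries, from 0 without the P25 or the 8 weeks library to 14 higher and 4 lower without the P15 library. Of the other genes Cdk6 was lower, by -1.45 ± 0.39.

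The Rgs5 gate did not differ from the Hand2 and Pappa2 gates in any member by edgeR, where 3.0% of genes were called higher and 1.11% lower. At an unadjusted p under 0.05 there were 8 members, with Stmn1 at -0.86 ± 0.27 (edgeR adjusted p = 0.0947) and Cdkn1c at 0.73 ± 0.31 (edgeR adjusted p = 0.232). DESeq2 called 1 member lower and 0 higher. Without the P15 library 3 were called higher and 5 lower. Wee1, which holds CDK1 inactive, was the other cell cycle gene called, and it was lower in the Rgs5 gate by -0.97.

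**Figure D5:**
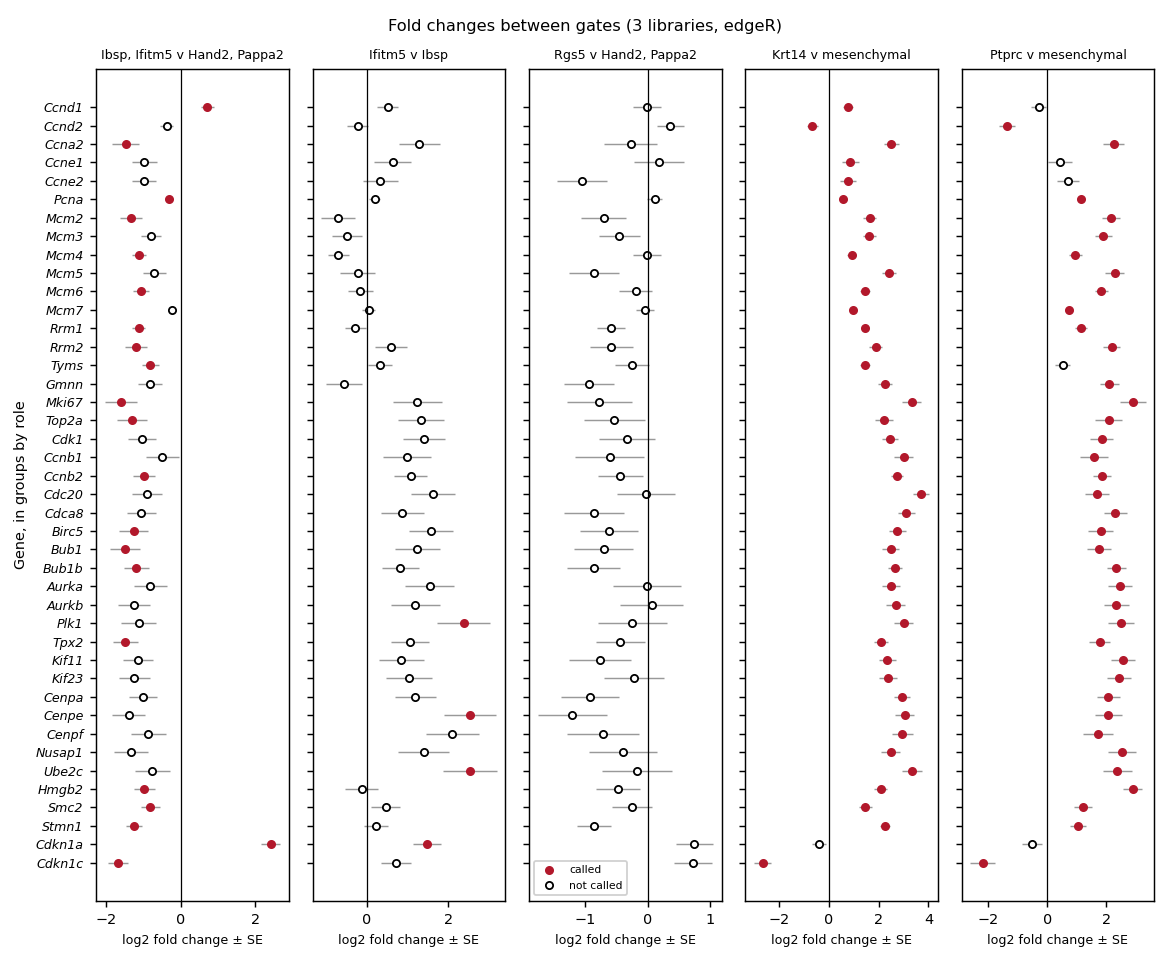
Log2 fold changes of the 42 genes in the comparisons between gates, 1 panel each, with bars for the standard error, filled points for genes called at an edgeR adjusted p under 0.05 and open points for the others. The Krt14 gate against the mesenchymal gates has 39 filled points above 0, with Cdc20 at 3.72.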

How the data were processed

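The authors sorted mCherry+ cells of dissociated molars, made 10x 3' libraries (v3.1) and, per the labels, processed the reads with Cell Ranger 6.1.2 against mm10. The authors deposited raw UMI counts per gene and cell as filtered matrices, and per the file headers the P25 matrix came from Cell Ranger 6.0.1 with a longer gene list. Counts with no shared identifier were 0.272%, 4.80% and 0.189% of UMIs at P15, P25 and 8 weeks and were left out, so 187645941, 161563953 and 46147021 UMIs were used.

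Genes were joined by identifier, with no cell filter and no doublet caller. Members were counted after thinning to 3000 UMIs, and gates were drawn on full counts, where among the mesenchymal genes the highest ratio to its limit decided. Intervals were exact, by Clopper-Pearson for shares and Poisson for sums. The latter take each UMI as independent and leave out the clustering of UMIs in cells. Where no cell was positive, the share that 3 cells would make is given, which lies below the exact upper limit. Sums of at least 20 cells (21 sums) were tested in R 4.3.3 with edgeR 4.0.16 (TMM, filterByExpr, robust quasi-likelihood test, 11 residual degrees of freedom), and with DESeq2 1.42.0 as an alternative. The test was also run on simulated counts, with a fixed dispersion, no library effect and changed genes in the Krt14 gate only. That setting differs from the data, so nothing on the library block or the calls is read from it. The fold between ages needed at least 10 UMIs and had no test. Alternatives covered depth, normalization, filters, gates and libraries.

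The library was a block in the main design because gates of 1 library come from 1 pool of cells. Deviations from the gate means correlated within a library (median r = 0.325, lowest 0.0949, 57 pairs), over genes. Between libraries the median r was -0.182 (114 pairs). Deviations from a gate mean cancel over the libraries, which makes this value negative by construction, so nothing is read from it. Each age is 1 library, so with this block the p-values measure how far the differences between gates varied over the ages.

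For each comparison the 5 members with the largest fold change in each direction are named, and 3 of the other genes. Mki67, Top2a, Cdk1, Ccnb1, Pcna, the Mcm genes, D cyclins and inhibitors are described throughout. The members, gene lists, gates and rules were chosen with earlier results of these data known.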

Additional observations from a re-analysis of the deposited data

Results flagged for a closer look

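The Krt14 gate stood apart because its share of cells with mitotic transcripts was lower at P15 than at 8 weeks, with a ratio of 0.393 (exact 95% interval 0.263 to 0.606), while the ratio was above 1 in the ungated cells and in the mesenchymal gates that gave one. The difference between gates was not tested, since each age was 1 library. The gate held 95 thinned cells at 8 weeks, of which 30 were positive.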

How the results depend on the processing

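The fall in the share over all cells kept its direction in the 8 alternatives run, and the counts of higher members in the Krt14 and Ptprc gates stayed within 1.5 times their value in each of theirs. The gate minimum, exclusive gates and Col1a2 split were chosen after seeing the data. Without the library as a replicate block the Ibsp and Ifitm5 gates against the Hand2 and Pappa2 gates gave 1 member higher and 9 lower, and the Ifitm5 against the Ibsp gate 0 higher. Leaving out the block changed no other count by over 1.5 times. DESeq2 gave 7 for the last and 1 lower for the Rgs5 gate. No low count filter gave 2 for the Ifitm5 gate. A gate minimum of 5 UMIs gave 1 higher and 11 lower for the Ibsp and Ifitm5 gates, and 1 for the Ifitm5 gate. Cells positive for exactly 1 gate gene gave 3 lower in the first. Without the 6% of cells with the most UMIs these were 11 lower, 0 for the Ifitm5 gate, 1 lower for the Krt14 gate and a ratio of shares of 9.21. In the mesenchymal gates alone the ratio of shares was 2.39, and 0 and 2 members passed the fold at P15 and 8 weeks. Of the 27 members higher at P15 by that fold over all cells, 8 had a ratio below 1 there: Ccna2 (0.876), Cdca8 (0.9997), Bub1 (0.913), Tpx2 (0.941), Cenpf (0.673), Ube2c (0.964), Gmnn (0.976) and Hmgb2 (0.942). With libraries left out in turn, the Ibsp and Ifitm5 gates gave 1 to 2 higher and 0 to 14 lower members, the Ifitm5 gate 0 to 14 and 0 to 4, the Rgs5 gate 0 to 3 and 0 to 5, the Krt14 gate 36 to 39 and 1 to 3, and the Ptprc gate 29 to 35 and 1 to 3. The causes were not tested, and a left-out library also leaves fewer sums. Depth and 1 library per age limit every statement on age, and small gates at 8 weeks allow wide shares.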
